A study of Homo sapiens with 6 samples.

Results

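The genes examined were 3 transcription factors of the PEA3 branch of the ETS family (ETV1, ETV4 and ETV5) and 7 negative feedback genes of ERK signalling (the phosphatase genes DUSP4, DUSP5 and DUSP6, the inhibitor genes SPRY2, SPRY4 and SPRED1, and PHLDA1). They were taken by symbol, 10 of the 17047 genes of the deposited table, and all 10 were among the 12959 genes that passed the filter on low counts. The set was chosen by how its genes changed with PLEK2 shRNA in these libraries, so their changes are given as a description, without a test. RNA of HCT116, an established human colorectal carcinoma cell line, was sequenced in 3 libraries of cells with a non-targeting shRNA (shNC) and 3 libraries of cells with PLEK2 shRNA (PLEK2 knockdown in the labels). The shRNAs were delivered by viral transduction, and the study lists a single PLEK2 shRNA, so no second shRNA against the gene could be compared. Nothing in the labels says that the libraries of a group came from separate cultures, so the spread between them may be technical.

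In the Ras-ERK cascade, growth factor receptors and Ras activate RAF, MEK and ERK kinases in turn, and ERK enters the nucleus and drives transcription. ETV1, ETV4 and ETV5 are among the transcription factors whose genes are switched on by this pathway, and they carry part of its output to further genes. The pathway also induces its own brakes: the DUSP phosphatases remove phosphate from ERK, and the Sprouty and SPRED proteins act upstream at the level of Ras and RAF.

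The shRNA is shown with the short sites that match its seed, since a seed match is a feature of the members that their choice did not use. Read on GRCh38, the 21-nt target lies at chr14:67397753-67397773 on the minus strand, in exon 2 of the 9 exons of PLEK2, starting at base 96 of the coding sequence, and PLEK2 was the 1 gene with the full target in its transcripts. Capitals mark the 7 letters that pair with the seed (bases 2 to 8) of the guide strand. The same letters stand in the 3′ UTR of 2 of the 10 members, ETV5 (at chr3:186048529-186048551, minus strand) and SPRED1 (at chr15:38353256-38353278 and chr15:38356198-38356220, plus strand), and in 10.5% of the 12445 tested genes with an annotated 3′ UTR.
PLEK2 shRNA target: gctggtgtactacAAGCTTGa
ETV5 3′ UTR: tgttcctaAAGCTTGccctttga
SPRED1 3′ UTR, first site: tcacacttAAGCTTGtgttagct
SPRED1 3′ UTR, other site: tccattaaAAGCTTGactgcatt
A match of these letters is a description and not a shown site of action. The 3′ UTRs were read only from the transcript that the annotation marks as canonical for each gene. That of ETV1, the member with the largest difference between the groups, holds no such letters. An effect through the seed was not tested.

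PLEK2 itself had 85.97, 72.63 and 82.88 CPM (counts scaled to library size by TMM factors) in shNC replicates 1, 2 and 3, and 16.02, 32.19 and 34.95 CPM in PLEK2 shRNA replicates 1, 2 and 3. The targeted transcript was lower in every PLEK2 shRNA library than in any shNC library, and lowest in replicate 1. Its log2 fold change was -1.54 (SE 0.24), and edgeR's adjusted p over all genes (quasi-likelihood test) was 0.684. With the replicate number as a block it was -1.57 (SE 0.17), with an adjusted p of 0.0011. The call also depended on the test: the DESeq2 Wald test passed PLEK2 without the block (-1.53, adjusted p = 5.09e-07). Unblocked edgeR passed it when PLEK2 shRNA replicate 1 was left out (-1.26, edgeR adjusted p = 0.0106). Over 10141 genes, libraries with the same number deviated together in both groups, so the blocked edgeR value stands beside an unblocked one whose call it changes. PLEK2 itself did not follow this. On the log2 scale, its replicate 1 differed from the mean of replicates 2 and 3 by 0.145 with shNC and by -1.07 with PLEK2 shRNA.

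Library totals lay between 14377532 and 15602732 estimated counts. On the scale of FPKM, which divides counts by transcript length and library total, epithelial markers summed to between 5058.74 and 5813.02 with shNC and between 4220.37 and 5380.34 with PLEK2 shRNA, with 6 of the 7 measured above 1 FPKM (VIL1 did not exceed 0.08). Of the 4 fibroblast markers and the 4 immune cell markers measured, 1 each exceeded 1 FPKM (COL1A1 and CD68), and of the 3 endothelial markers none did. In bulk RNA, fewer cells that express a gene and less RNA per cell cannot be told apart.

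Levels per transcript length set the members apart more than the knockdown did. PHLDA1 had the highest mean FPKM over the 6 libraries (66.6), above 90.5% of the tested genes, followed by DUSP5 (47.8), DUSP4 (36.5) and ETV4 (34.5). SPRY4 (18.3), DUSP6 (13.7) and ETV5 (12.7) took the middle of the order, and SPRED1 (7.22), ETV1 (5.21) and SPRY2 (3.12) the lower end, SPRY2 above 24.0% of the tested genes. Of the neighbours in this order, DUSP4 and ETV4, DUSP6 and ETV5, SPRED1 and ETV1, and ETV1 and SPRY2 overlapped in their ranges over the 6 libraries. The remaining neighbours in the order did not overlap. The range within a member was narrow beside this, from 64.72 to 68.87 FPKM for PHLDA1 and from 3.18 to 7.59 FPKM for ETV1, the widest in proportion.

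**Figure D1:**
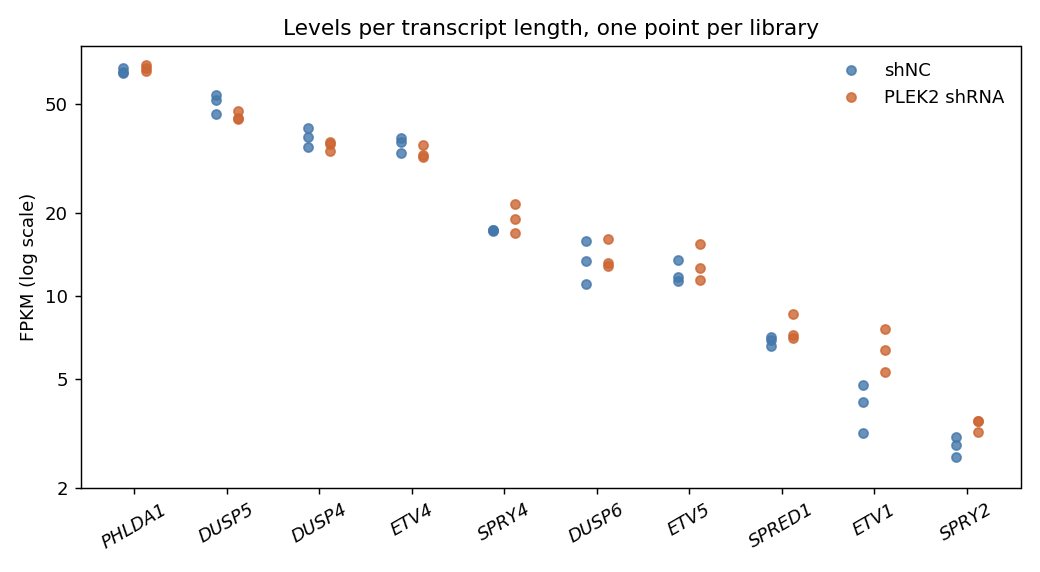
FPKM of each member (log axis) in order of its mean over the 6 libraries, with 1 point per library, blue for shNC and orange for PLEK2 shRNA. PHLDA1 lies between 64.72 and 68.87 FPKM and SPRY2 between 2.6 and 3.51, and ETV1 is the member whose 2 groups stand farthest apart.

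Among the PEA3 factors, ETV1 was higher with PLEK2 shRNA, while ETV4 and ETV5 had overlapping groups. ETV1 (chr7:13891229-13991425, minus strand, GENCODE 44 on GRCh38) had 15.45, 19.55 and 22.99 CPM in shNC replicates 1 to 3 and 30.64, 25.23 and 34.88 CPM in PLEK2 shRNA replicates 1 to 3. Every PLEK2 shRNA library exceeded every shNC library, and the lowest shNC library was replicate 1. The group means were 19.3 ± 3.77 and 30.3 ± 4.84 CPM (SD, n = 3 each), a log2 fold change of 0.65 (SE 0.17). Within same-numbered pairs ETV1 was 1.98, 1.29 and 1.52 times as high with PLEK2 shRNA. The pair that differed most, pair 1, also held the lowest PLEK2 level. Within the PLEK2 shRNA group, however, ETV1 was highest in replicate 3. These values rest on 237 to 527 counts per library, for which counting error alone is 5.18% of the mean, against a coefficient of variation of 19.5% between the shNC libraries.

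ETV4, the founding PEA3 gene (chr17:43527844-43579620, minus strand), ran at 78.15, 68.68 and 72.21 CPM with shNC, against 62.05, 66.55 and 70.95 CPM with PLEK2 shRNA. It was lower in all 3 pairs, but by 0.33 on the log2 scale in pair 1 (log2 ratio -0.33) and by little in pairs 2 and 3 (-0.05 and -0.03), and the groups overlapped. Means were 73.0 ± 4.79 and 66.5 ± 4.45 CPM, a log2 fold change of -0.13 (SE 0.09). DHX8, on the opposite strand, shares 68 nt of exonic sequence with ETV4.

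ETV5 (chr3:186046314-186110318, minus strand), the PEA3 factor with a seed match, had 47.25, 45.60 and 53.87 CPM with shNC and 44.25, 50.19 and 60.50 CPM with PLEK2 shRNA. Its direction differed between the pairs, with log2 ratios of -0.09, 0.14 and 0.17, and replicate 3 was the highest library in both groups. Between the groups this came to a log2 fold change of 0.08 (SE 0.13). DGKG shares 164 nt of exonic sequence with ETV5 on the same strand, so reads there could belong to either gene.

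The 3 factors can be set against each other within a library on the FPKM scale. ETV4 had by far the largest part of their summed FPKM, and ETV1 made up 6.07%, 8.51% and 8.69% of the sum in shNC replicates 1 to 3 and 12.7%, 10.4% and 13.0% in PLEK2 shRNA replicates 1 to 3. The share of ETV1 was thus higher in each PLEK2 shRNA library than in any shNC library. The sum itself overlapped between the groups, at 48.42 to 54.56 FPKM with shNC and 49.72 to 58.49 FPKM with PLEK2 shRNA.

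**Figure D2:**
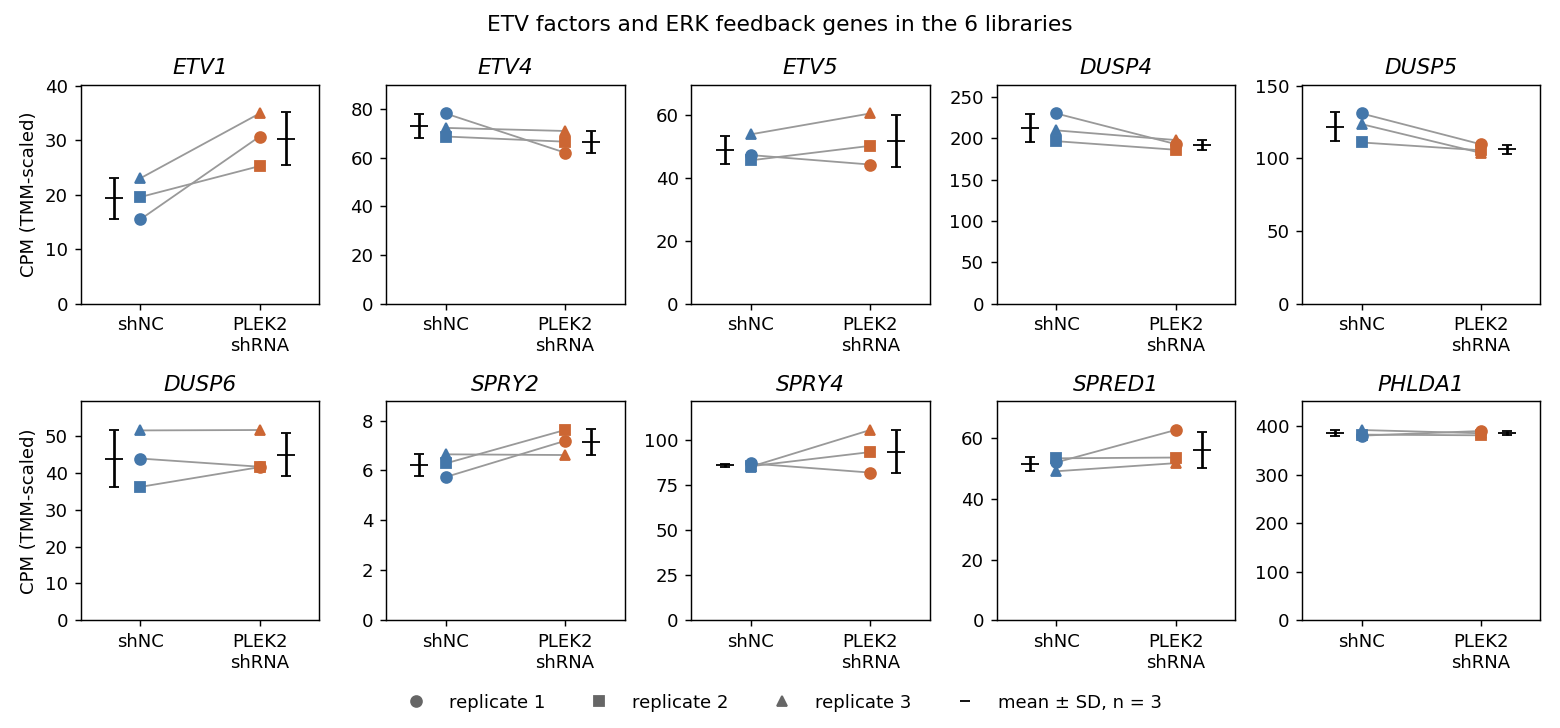
CPM (TMM-scaled, axes from 0) of the 10 members in the 6 libraries, with lines joining same-numbered libraries and black bars for the mean ± SD (n = 3). ETV1 lies between 15.45 and 22.99 CPM with shNC and between 25.23 and 34.88 CPM with PLEK2 shRNA. DUSP5 is the other member whose groups do not overlap in CPM.

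The 3 DUSP genes encode phosphatases of the MAP kinases: DUSP6 acts on ERK in the cytoplasm, DUSP5 on ERK in the nucleus, and DUSP4 on ERK and other MAP kinases in the nucleus. DUSP4 and DUSP5 had lower means with PLEK2 shRNA, and DUSP6 had not. DUSP5 (chr10:110497907-110511533, plus strand) reached 131.01, 111.03 and 123.66 CPM with shNC, as opposed to 109.80, 105.65 and 103.85 CPM with PLEK2 shRNA. The groups did not overlap in CPM, although shNC replicate 2 and PLEK2 shRNA replicate 1 were close. In FPKM they overlapped through these libraries (45.84 and 46.99 FPKM). The means were 122 ± 10.1 and 106 ± 3.05 CPM, a log2 fold change of -0.20 (SE 0.09), with pair ratios of -0.25, -0.07 and -0.25.

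DUSP4 (chr8:29333064-29350684, minus strand) stood at 229.95, 196.43 and 209.51 CPM with shNC and at 192.95, 186.06 and 197.84 CPM with PLEK2 shRNA. It was lower in all 3 pairs (log2 ratios of -0.25, -0.08 and -0.08), with PLEK2 shRNA replicate 3 just above shNC replicate 2. Its log2 fold change was -0.14 (SE 0.08).

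DUSP6 (chr12:89347235-89352501, minus strand), often read as a gauge of ERK activity, had 44.00, 36.28 and 51.65 CPM with shNC and 41.77, 41.65 and 51.76 CPM with PLEK2 shRNA. The groups overlapped, and replicate 3 was the highest library in both. The means were 44.0 ± 7.69 and 45.1 ± 5.80 CPM, and the log2 fold change was 0.03 (SE 0.15), the SE being several times the change. A lncRNA gene on the opposite strand shares 1105 nt of exonic sequence with DUSP6, and the library preparation does not state a strand, so reads of the 2 genes cannot be told apart there.

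The Sprouty and SPRED genes encode membrane-associated inhibitors of Ras and RAF activation, and the means of all 3 were slightly higher with PLEK2 shRNA. SPRY2 (chr13:80335976-80341126, minus strand) gave 5.74, 6.28 and 6.65 CPM with shNC and 7.18, 7.62 and 6.62 CPM with PLEK2 shRNA. The groups overlapped in CPM by a hair, through shNC replicate 3, whereas in FPKM they did not (2.6 to 3.05 with shNC and 3.2 to 3.51 with PLEK2 shRNA). SPRY2 had 88 to 116 counts per library, at which counting error is 9.98% of the mean, more than the spread within either group (7.37% and 7.04%). The log2 fold change was 0.20 (SE 0.14).

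SPRY4 (chr5:142310427-142326455, minus strand) measured 87.21, 85.69 and 85.44 CPM with shNC and 82.14, 93.56 and 105.84 CPM with PLEK2 shRNA. The shNC libraries were nearly level (coefficient of variation 1.11%) and the PLEK2 shRNA libraries spread on both sides of them (12.6%). The pair ratios were -0.09, 0.13 and 0.31 on the log2 scale, and the log2 fold change 0.12 (SE 0.10).

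SPRED1 (chr15:38252836-38357249, plus strand), which brings neurofibromin to the membrane, had 52.01, 53.36 and 49.09 CPM with shNC, beside 62.69, 53.61 and 51.76 CPM with PLEK2 shRNA. It was higher in all 3 pairs, but PLEK2 shRNA replicate 1 alone stood clear of the shNC libraries. The log2 fold change was 0.12 (SE 0.10), and this is the member with a pair of seed matches.

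PHLDA1 (chr12:76025447-76031776, minus strand), a pleckstrin homology-like protein induced by ERK, had 380.38, 382.49 and 392.02 CPM with shNC and 389.97, 381.13 and 385.35 CPM with PLEK2 shRNA. It was the most even member, with means of 385 ± 6.20 and 385 ± 4.43 CPM and a log2 fold change of 0.00 (SE 0.07). Its log2 pair ratios were 0.04, -0.01 and -0.02. An antisense gene, PHLDA1-AS1, shares 553 nt of its exonic sequence.

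**Figure D3:**
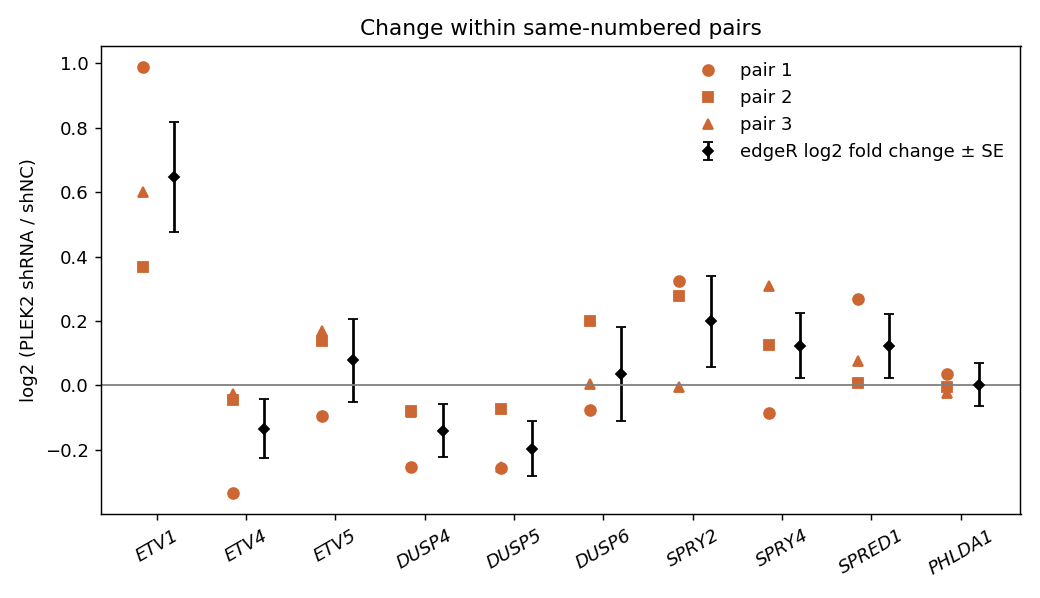
Log2 ratio of PLEK2 shRNA to shNC in each same-numbered pair (orange) and the edgeR log2 fold change with its SE (black) for the 10 members. ETV1 lies between 0.37 and 0.99 in the 3 pairs, and the other members between -0.33 and 0.32.

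As a set the members had no common direction. The log2 fold change was above 0 for 7 and below 0 for 3, with a median of 0.06, or 0.03 without ETV1, beside -0.0021 over all tested genes. The medians within pairs 1, 2 and 3 were -0.08, 0.07 and -0.0015. ETV1 and SPRED1 (2 members) were higher in all 3 pairs, as were 19.9% of all tested genes, and ETV4, DUSP4 and DUSP5 (3 members) were lower in all 3, as were 21.1%. In CPM the groups did not overlap, with PLEK2 shRNA higher, for 1 member (ETV1) and for 4.08% of tested genes. With PLEK2 shRNA lower, they did not overlap for 1 member (DUSP5, which overlapped in FPKM) and for 5.12%. Nothing is read from these counts, since the same contrast chose the members.

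Without the block, the edgeR test at an adjusted p under 0.05 called 0% of the 12959 tested genes (400 genes had an unadjusted p under 0.05, and the DESeq2 Wald test called 12 genes). With the replicate block it called 0.123% of them higher and 0.725% lower. The members are counted among the tested genes, but their own calls are not given, since this contrast chose them. As a description, the log2 fold change of ETV1 without the block lay above that of 99.7% of the tested genes, and with the block it was 0.65 (SE 0.10).

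Replicate 1 stood apart from replicates 2 and 3 for some members, and not in the same way in both groups. On the log2 scale, ETV1 in replicate 1 differed from the mean of replicates 2 and 3 by -0.46 with shNC and by 0.03 with PLEK2 shRNA. SPRY4 differed by 0.03 and -0.28, ETV5 by -0.07 and -0.32, and SPRED1 by 0.02 and 0.25.

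ETV1 had a further feature in the deposited values. The transcript length implied by its counts and FPKM varied from 4642 to 4938 nt between the libraries, a spread of 6.38%, which was larger than that of 84.3% of 10213 genes (median 1.62%). The mean implied length was 4763 nt with shNC and 4790 nt with PLEK2 shRNA, and ETV4 (3.78%) and SPRY2 (4.71%) were the other members with a spread of this order. Which transcripts of ETV1 were counted cannot be read from gene totals.

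Promoter sequence, from 250 bases before to 50 after an annotated start (RefSeq, GRCh38.p14), was at hand for 6 members in 13 windows: ETV1, DUSP6, SPRY2, SPRY4, SPRED1 and PHLDA1. Searched on both strands were CCGGAAGT, an ETS motif (in 4.14% of 35116 promoters), TGAATGAA and TGAATGGA, sites of the repressor Capicua (1.65% and 1.03%), TGACGTCA, the cAMP response element (1.85%), and TGANTCA, the AP-1 motif (7.71%). The 1 match among the members was a Capicua site in ETV1, 125 bases before a start, at chr7:13991535-13991558 on the minus strand, shown because Capicua is the known repressor of the PEA3 genes. Counted by gene, TGAATGGA stood in 1.27% of 27305 genes, and ETV1 held 6 of the 13 windows. Capitals mark the motif.
ETV1 promoter: gaattttgTGAATGGAgacgaaag
The other members have none of these letters in their windows, which says nothing about the factors.

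The genes that control the PEA3 factors were examined next, with changes tested over all genes in edgeR. This list and those below were written with earlier results of these data known, so their p-values are descriptive. CIC encodes Capicua, ATXN1 and ATXN1L its partners, and COP1, DET1, DDB1 and CUL4A belong to the ubiquitin ligase that removes PEA3 proteins. None of the 7 passed the test with or without the block, and their median log2 fold change was 0.01. With the block, the gene with the smallest p was ATXN1L, with a log2 fold change of 0.27 (SE 0.06, edgeR adjusted p = 0.0607), higher in all 3 pairs. CIC had a log2 fold change of -0.14 (SE 0.06, edgeR adjusted p with the block = 0.223), and DDB1, the most expressed at 112.9 FPKM, one of -0.02. Of 16 tested ETS factors outside the PEA3 branch (24 listed) none passed, with a median of 0.06. The smallest p there was that of ERF, an ETS repressor that ERK inactivates, at -0.22 (SE 0.06, edgeR adjusted p with the block = 0.0817), and the most expressed was ELF3 (35.24 FPKM, log2 fold change -0.13).

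Of the other brakes, DUSP7 and ERRFI1 fell in the fit with the replicate block and did not pass without it. As their lists were written with earlier results known, their p-values are not independent support. DUSP7, a cytoplasmic ERK phosphatase related to DUSP6, fell by 0.53 on the log2 scale (log2 fold change -0.53, SE 0.08, edgeR adjusted p = 0.0067 with the block and 0.968 without it). It was lower in all 3 pairs (-0.77, -0.36 and -0.48) and the groups did not overlap. The other 6 of the 7 further MAP kinase phosphatases did not pass, with DUSP2 the most expressed (18.25 FPKM, log2 fold change -0.01).

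ERRFI1, a feedback inhibitor of the EGF receptor, had a log2 fold change with the block of -0.56 (SE 0.07, edgeR adjusted p = 0.0024 with the block and 0.968 without it) at a mean of 205.0 FPKM. It was lower in all 3 pairs (-0.77, -0.48 and -0.43), without overlap of the groups. For both genes, pair 1 differed most, as it did for PLEK2 and ETV1. ERRFI1 was high in shNC replicate 1 (927.69 CPM, against 681.54 and 661.42 CPM in the other shNC libraries). PLEK2 shRNA replicate 1 was the highest of its group for ERRFI1 (542.18 CPM, against 489.73 and 490.59 CPM) and the lowest for DUSP7 (33.89 CPM). A relation to the PLEK2 level was not tested. The other 10 of these 11 brakes on Ras and receptors did not pass, including NF1, the partner of SPRED1 (0.10, SE 0.08 with the block). None of the 4 other Sprouty and SPRED genes passed (median 0.10). The smallest p without the block was that of SPRY3 (log2 fold change 0.31, SE 0.28), and with the block that of SPRED2, also the most expressed at 23.39 FPKM (-0.07, SE 0.06).

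The cascade itself showed no gene past the test among 22, with 11 higher, 11 lower and a median log2 fold change of 0.00. The smallest p belonged to BRAF (0.22, SE 0.06, edgeR adjusted p with the block = 0.111), and the most expressed gene was MAP2K2 (111.9 FPKM, -0.16). Among 14 tested genes that respond to ERK, none passed in edgeR with or without the block, and 11 were below 0 (median -0.04). The DESeq2 Wald test with the block called 2 of them, FOSL1 and HMGA2, an architectural chromatin protein whose log2 fold change was 0.25 (SE 0.06, edgeR adjusted p with the block = 0.0759). In edgeR the smallest p was that of FOSL1, an AP-1 subunit, with a log2 fold change of -0.26 (SE 0.06, edgeR adjusted p with the block = 0.0708), lower in all 3 pairs without overlap of the groups. IER3, the most expressed at 388.2 FPKM, had a log2 fold change of -0.02.

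Genes reported as targets of the PEA3 factors were few in this line, with 5 of 8 tested and none past the test (median -0.03). PLAU, which encodes urokinase and was the most expressed at 14.86 FPKM, had a log2 fold change of 0.09 (SE 0.10), and PTGS2, with the smallest p, 0.46 (SE 0.40) at a level of 0.345 FPKM. Over all 8 lists, 86 genes of 98 listed were tested. Without the block edgeR called 0 (6 had an unadjusted p under 0.05, and the DESeq2 Wald test called 0), and with it 0 higher and 2 lower.

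**Figure D4:**
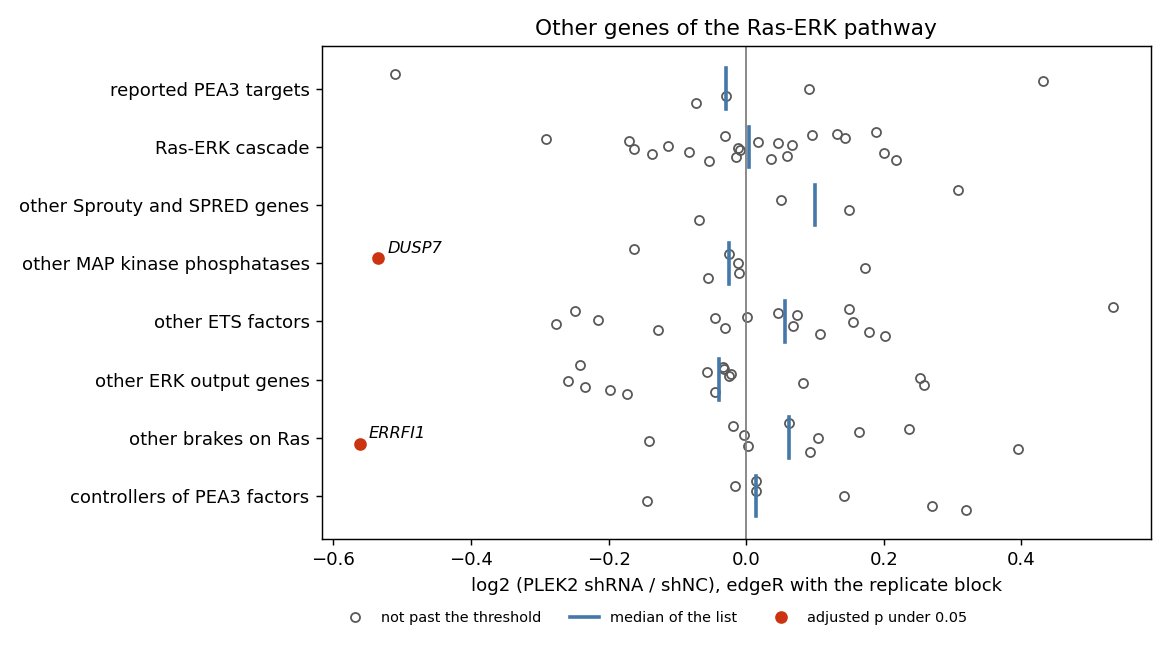
Log2 fold change with the replicate block of the 86 tested genes in the 8 lists around the members, 1 circle per gene, with the median of each list as a blue line. The filled red points are DUSP7 (-0.53) and ERRFI1 (-0.56), the genes with an adjusted p under 0.05 in that fit.

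The genes whose profiles over the 6 libraries were nearest to those of the PEA3 factors and DUSP6 were found among 10132 genes by the root mean square difference of log2 CPM centred on its mean. For ETV4 they were TYRO3 (0.022), NCAPD2 (0.0262) and AGBL5 (0.0279), where ETV4 itself varied by 0.103. For ETV5 they were LPAR5 (0.0371), PTRHD1 (0.0394) and RHOBTB3 (0.0511), and for DUSP6 AQP3 (0.0599), RHOBTB3 (0.0706) and HERC5 (0.0729). RHOBTB3 stood in both of these sets. For ETV1, SAMD5 (0.217), FAM117A (0.219) and XXYLT1 (0.221) stood nearest, beside its own variation of 0.39.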

How the data were processed

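Genes were analysed from 1 table of the series, which holds 6 libraries in 2 groups taken from the labels, and 0 per-sample columns were left unassigned. The authors deposited estimated counts per gene, without normalization, and values scaled to transcript length and depth, whose header names no unit, read here as FPKM. Deposited group means were not used. The submitters' processing notes name HISAT2 2.0.4, Bowtie2 2.2.5, RSEM 1.2.12 and DESeq2 1.4.5, and the mouse build GRCm38.p6. The gene IDs are human (16843 of 17047 matched human RefSeq gene IDs), and the human build is not given in the sources used here. Reads were single-end, 50 bases, from poly(A) RNA. Coordinates were taken from GENCODE 44 (GRCh38, possibly another build than that of the counts), and the shRNA target from the study's oligonucleotide table.

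Counts were rounded. Genes were filtered with filterByExpr (edgeR 4.0.16, R 4.3.3) and compared with edgeR's quasi-likelihood test after TMM scaling, with Benjamini-Hochberg adjustment over 12959 genes. The SE is the log2 fold change over the root of F. An exact permutation test of 3 against 3 libraries cannot go below p = 0.1 (two-sided), so none was run. TMM factors lay between 0.984 and 1.021. The fit was tested on simulated data. Over 10141 genes, same-numbered libraries correlated in their deviation from the group mean at 0.733, 0.549 and 0.541, other libraries at -0.628 to 0.35. Each mean holds 3 libraries, so these values depend on one another and do not show that every number marks a pair. The labels give the numbers but state no shared day. Alternatives were the block, other scalings, filters and tests (DESeq2 1.42.0, limma 3.58.1), and leaving out libraries. Tables and figures were made with Python 3.11.15.

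The members and the hand-written lists were chosen with earlier results of these data known. Named were all members, PLEK2, in each list the genes with an adjusted p under 0.05, otherwise the smallest p, and the most expressed gene, and the 3 nearest profiles of ETV1, ETV4, ETV5 and DUSP6 among genes with a mean log2 CPM over 3. CIC, NF1 and HMGA2 were added after their values were seen. The listed genes ERG, FLI1, CDX1, DCN, LUM and PTPRC were not analysed here.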

Additional observations from a re-analysis of the deposited data

How the results depend on the processing

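At an adjusted p under 0.05 the test without the block called 0 genes, and 0 genes of the pathway lists, also with DESeq2 size factors, library totals, both other filters and limma on log2(FPKM + 1) or log2(FPKM + 0.1). Leaving out 1 library gave 0 to 1 genes (1, PLEK2, without PLEK2 shRNA replicate 1) and 0 to 0 in the lists. The DESeq2 Wald test gave 12 and 0. The replicate block gave 110 genes and 2 in the lists. With the block, library totals gave 192 and 4, the DESeq2 Wald test 74 and 3, and limma on log2(FPKM + 1) 20 and 1. Leaving number 1 out of both blocked groups gave 528 and 6, number 2 18 and 2, and number 3 297 and 6. The cause of these differences was not tested.

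The log2 fold change of ETV1 lay between 0.50 and 0.80 over the alternatives, that of SPRY2 between 0.14 and 0.31. Others moved with 1 library: DUSP4 came to -0.07, DUSP5 to -0.13 and ETV4 to -0.07 without shNC replicate 1, SPRY4 to 0.03 without PLEK2 shRNA replicate 3 and 0.21 without PLEK2 shRNA replicate 1, and SPRED1 to 0.03 without PLEK2 shRNA replicate 1. The sign changed for ETV5 in 1 alternative (-0.05 without PLEK2 shRNA replicate 3), for DUSP6 in 3 (lowest -0.08) and for PHLDA1 in 2 (lowest -0.01). ERRFI1 passed in each blocked alternative, and DUSP7 in each blocked edgeR fit. Without the block, PLEK2 passed in the DESeq2 Wald test (adjusted p = 5.09e-07) and in edgeR without PLEK2 shRNA replicate 1 (adjusted p = 0.0106). It did not pass in unblocked limma on log2(FPKM + 1) (adjusted p = 0.689) or log2(FPKM + 0.1) (adjusted p = 0.494). DESeq2 with the block gave no adjusted p to PLEK2, ETV1, ETV4, ETV5, DUSP6, SPRY2 and SPRED1. Its counts of called genes thus rest on fewer genes than those of edgeR. Differences in SPRY2 of the size of its counting error were not detectable at this depth.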
